A study of Mus musculus with 6 samples.

Results

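Cytosolic ribosomal protein genes were examined in mouse embryonic fibroblast (MEF) lines with and without the RNase H2 subunit gene Rnaseh2b. The genes were chosen by name: every probe of the Illumina MouseWG-6 v2 array whose symbol starts with Rpl or Rps and a number, with Rplp0, Rplp1, Rplp2 and Rpsa, but without the Rps6k kinases and Rps27l. This gave 95 probes for 64 genes. A probe was kept if its detection p, which compares it with the negative control beads of its array, was under 0.01 on all 6 arrays, and this left 76 probes for 54 genes among 8200 genes tested. Of the 54 genes, 19 encode small-subunit proteins, 30 encode large-subunit proteins and 5 are paralogues or genes that match by name only. Several ribosomal protein genes, among them Rps18, Rpl5, Rpl11 and Rps27a, were not analysed here.

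The arrays hold RNA of 2 Rnaseh2b-/- lines and 4 Rnaseh2b+/+ control lines. Each line was grown from a whole E10.5 embryo on a C57BL/6J background, and all 6 lines were also p53-/-, so the controls lack p53 as well. The Rnaseh2b-/- lines carry the tm1d null allele, in which Cre removed a coding exon. The cells were kept at 3% oxygen, and RNA was taken 20 hours after the medium was changed. The study chose these Rnaseh2b-/- lines because they had stronger upregulation of interferon-stimulated genes than others, so they do not stand for all lines of the genotype, and each line is 1 embryo. RNase H2 removes ribonucleotides from DNA and cleaves RNA:DNA hybrids, and its genes are mutated in Aicardi–Goutières syndrome.

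The Rnaseh2b probe followed the labels. Its normalized log2 signal was 5.43 and 5.53 in the Rnaseh2b-/- lines and 9.17 to 9.81 in the controls, a difference of -4.01 on the log2 scale (limma over 10160 genes above background on any array, adjusted p = 0.00121). Detection p was under 0.01 for 15519 to 16114 probes per array, and lines correlated with r of 0.940 to 0.989 over the genes tested. All 12 fibroblast markers were detected on every array, with summed signals of 43466 and 48796 in the Rnaseh2b-/- lines and 50535 to 57974 in the controls. Rnaseh2b-/- replicate 1 stood apart in its muscle markers: 16 of 18 were above background on some array, and their sum was 72577 in that line, 3267 in Rnaseh2b-/- replicate 2 and 1372 to 3148 in the controls, with Ckm and Myh7 detected in no line. Epithelial markers, 8 of 11 above background on some array, summed to 4128 and 1453 against 300 to 559, with Epcam, Cldn4 and Cldn6 detected in no line. Blood markers, 4 of 10 above background on some array, summed to 173 and 186 against 165 to 272, with Ptprc and Itgam detected in no line. The part of these other cell types in the results below was not tested. In RNA of whole cultures, fewer cells of a type and less RNA per cell cannot be told apart.

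The cytosolic ribosome joins a small subunit, which reads the mRNA, to a large subunit, which forms the peptide bond. Its proteins are made in near equal numbers, and their mRNAs are among the most abundant of growing fibroblasts. Most of these mRNAs begin with a terminal oligopyrimidine (TOP) tract, a short run of C and U right at the cap, through which the kinase mTOR controls their translation more than their amount. Unassembled Rpl5 and Rpl11 bind Mdm2 and thereby stabilise p53, a response that has no target in cells that lack p53.

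The annotated start sites of the family held pyrimidine runs more often than those of all genes, but not at every member. Of the 54 genes tested, 45 matched an entry in the RefSeq promoter table (GRCm38.p6), with 53 starts. The window searched ran from 40 bases before to 20 bases after the start, and the search was for an unbroken run of 8 or more C or T on the transcribed sense strand. Such a run was found at 27 of 53 member starts (50.9%), at 24.2% of all 32851 starts in the table, and at 25.3% of 75 starts of mitochondrial ribosomal protein genes. On the opposite strand the shares were 9.43%, 25.5% and 18.7%. Counted per gene, 6 of the 9 members with the smallest p-values below held a run, and 19 of the other 36. The annotated start need not be the first base of the mRNA, and a run in the window is a match of letters, not a shown TOP tract. The windows of 7 of these 9 members are printed because the results turn on these genes. Each reads 5′ to 3′ along its gene, capitals mark the longest run of C and T, and the annotated start is the base after the first 40. 
Rpl4 (chr9:64173347-64173406, + strand): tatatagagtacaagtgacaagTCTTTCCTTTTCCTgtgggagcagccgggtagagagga
Rps25 (chr9:44407674-44407733, + strand): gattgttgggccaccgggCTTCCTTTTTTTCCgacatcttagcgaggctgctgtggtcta
Rpl13a (chr7:45128726-45128785, - strand): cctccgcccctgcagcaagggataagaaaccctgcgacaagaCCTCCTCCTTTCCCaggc
Rpl22l1 (chr3:28805468-28805527, + strand): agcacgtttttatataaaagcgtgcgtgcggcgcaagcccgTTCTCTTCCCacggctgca
Rplp2 (chr7:141447611-141447670, + strand): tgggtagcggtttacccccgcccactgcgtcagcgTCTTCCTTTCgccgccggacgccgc
Rps16 (chr7:28350649-28350708, + strand): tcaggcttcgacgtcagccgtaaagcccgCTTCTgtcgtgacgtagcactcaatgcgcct
Rps13 (chr7:116334171-116334230, - strand): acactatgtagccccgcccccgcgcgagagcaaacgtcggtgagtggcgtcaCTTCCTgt
The longest runs were 14 bases at Rpl4, Rps25 and Rpl13a and 10 bases at Rpl22l1 and Rplp2. At Rps16 and Rps13 they were 5 and 6 bases, under the length searched for.

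No ribosomal protein gene passed the test between Rnaseh2b-/- and control lines. The fit was limma's moderated linear model on normalized log2 signal, with p-values adjusted by Benjamini-Hochberg over all genes tested. Among all 8200 genes, 23 were called higher (0.280%) and 16 lower (0.195%) at an adjusted p under 0.05, and the members' counts were 0 and 0. Median scaling gave 22 higher and 49 lower among all genes, and no normalization between arrays 29 and 88. These counts also turned on single lines: they were 0 and 0 without Rnaseh2b-/- replicate 1, 64 and 58 without Rnaseh2b-/- replicate 2, 108 and 109 without control replicate 1, 1 and 0 without control replicate 2 or 3, and 4 and 0 without control replicate 4. At an unadjusted p under 0.05, 9 of 54 members were lower (16.7%) and 0 were higher, against 10.7% and 7.27% of all genes. The count of 9 was 7 without control replicate 1 (13.0%, against 13.8% of all genes) and 5 without control replicate 2 (9.26% against 8.21%). It was 3 without control replicate 3 (5.56% against 7.10%) and 5 without control replicate 4 (9.26% against 7.46%). After median scaling it was 18 (33.3% against 21.2%), and with no normalization 20 (37.0% against 23.8%). Both Rnaseh2b-/- lines lay below all 4 controls for 14 members (25.9%) and above all 4 for 2 members (3.70%), against 16.0% and 11.9% of all genes. With 2 lines against 4 the smallest two-sided p of an exact permutation test on a single gene is 0.0667, so such a test cannot pass 0.05.

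The family's log2 fold changes had a median near that of all genes. It was -0.062, against -0.025 over all genes tested, with 36 negative and 18 positive values between -0.74 and 0.38. After median scaling the medians were -0.28 for the members and -0.19 for all genes, and with no normalization between arrays -0.36 and -0.27, and several of the positive values turned negative. The median size of the log2 fold change without its sign was 0.094 for the members and 0.193 for all genes. The 95% interval lay wholly within 0.5 on the log2 scale on either side of 0 for 36 of 54 members (66.7%) and for 32.4% of all genes, so for these 36 genes a larger shift lay outside the interval of the estimate. The median control SD was 0.097 for members and 0.175 for all genes. The values did not sit alike in the 2 Rnaseh2b-/- lines: the median distance of a member from the mean of the controls was -0.011 in replicate 1 and -0.102 in replicate 2, and -0.013 to 0.026 in the 4 controls. In replicate 2, 43 of 54 members lay below the control mean, and in replicate 1 this held for 30, while it held for 22 to 33 in the controls. Over all genes the median distances were -0.036 in replicate 1 and -0.009 in replicate 2, so the members lay above the median of all genes in replicate 1 and below it in replicate 2.

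**Figure D1:**
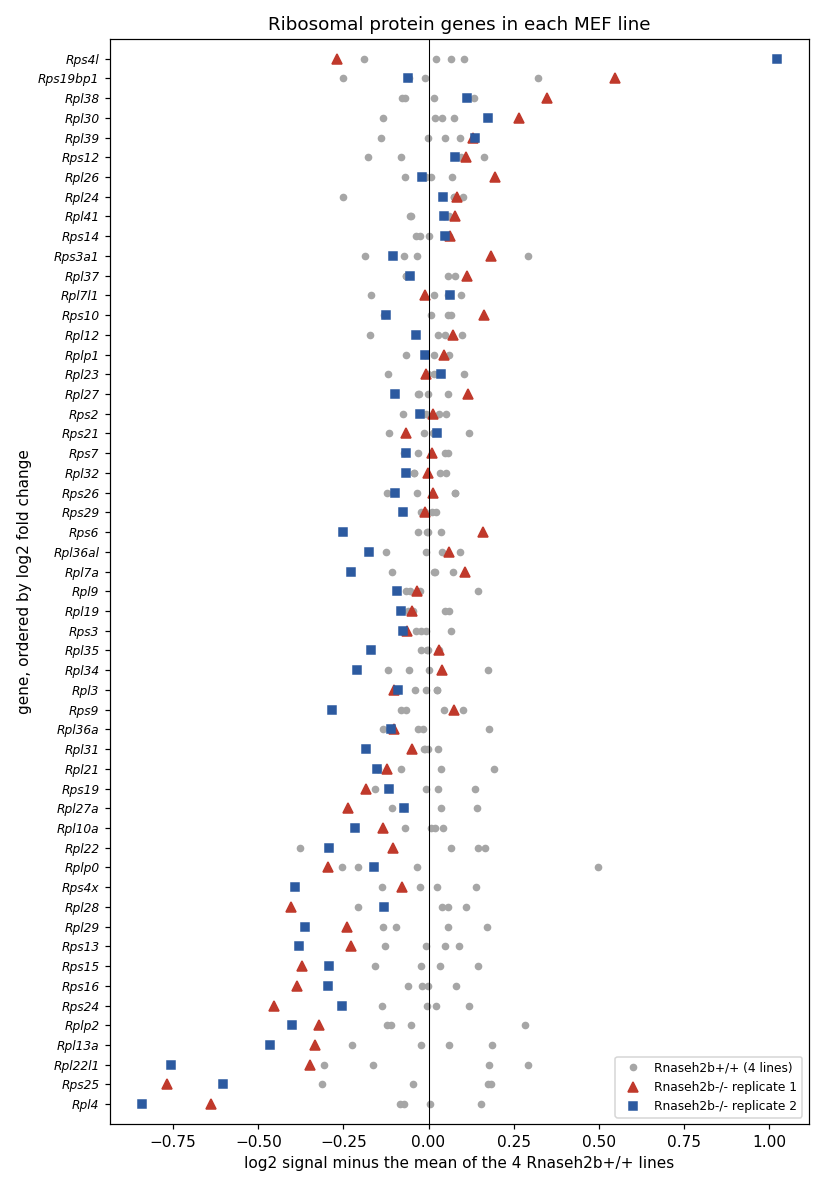
Normalized log2 signal of each of the 54 ribosomal protein genes, less the mean of the 4 Rnaseh2b+/+ lines (horizontal axis), with 1 row per gene ordered by log2 fold change. Grey circles are the 4 control lines, triangles and squares the 2 Rnaseh2b-/- lines; for 14 genes at the lower end and in the middle both Rnaseh2b-/- points lie left of all circles, and Rps4l at the top is high only in Rnaseh2b-/- replicate 2.

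Among the 19 small-subunit genes, 5 were lower and 0 higher by the unadjusted threshold of 0.05, which 10.7% of all genes passed downwards and 7.27% upwards. The median log2 fold change was -0.046, and it was -0.12 without Rnaseh2b-/- replicate 1, -0.011 without replicate 2 and -0.29 after median scaling. Rps25 encodes a protein of the head of the subunit that certain viral internal ribosome entry sites need. Its normalized log2 signal was 12.28 and 12.44 in the Rnaseh2b-/- lines and 12.73, 13.22, 13.00 and 13.23 in the controls. Both lines lay below every control, and the log2 fold change was -0.69 (standard error 0.17, 95% interval -1.09 to -0.28, limma, adjusted p = 0.133), which is 0.622 times the control level. Rps16, whose C-terminal tail reaches the tRNA in the P site, was at 13.88 and 13.97 against 14.25, 14.26, 14.34 and 14.20. The groups did not overlap, and the log2 fold change was -0.34 (standard error 0.12, adjusted p = 0.213). Rps24, mutated in some people with Diamond-Blackfan anaemia, an inherited failure to make red cells, was at 10.21 and 10.41 against 10.66, 10.79, 10.69 and 10.53. Its log2 fold change was -0.35 (standard error 0.13, adjusted p = 0.240), and its 3 probes gave -0.45 to -0.26.

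The remaining genes of this group below all controls at that unadjusted threshold were Rps15 and Rps13. Rps15, needed for export of the small subunit from the nucleus in human cells, was at 12.77 and 12.85 against 12.99 to 13.29, with a log2 fold change of -0.33 (adjusted p = 0.253, standard error 0.13). Rps13, which binds the central domain of the small-subunit rRNA, was at 13.14 and 12.99 against 13.24 to 13.45, with a log2 fold change of -0.30 (adjusted p = 0.275, standard error 0.13), or -0.51 where a second probe detected on 5 arrays was averaged in. Rps3, at the mRNA entry channel, also had both Rnaseh2b-/- lines below all controls, but by little: 13.59 and 13.57 against 13.61 to 13.71 (log2 fold change -0.07, adjusted p = 0.780). In the other 13 genes the groups overlapped. Rps4x, the X-linked gene of this set with the next largest difference, was at 14.45 and 14.14 against 14.39 to 14.67 (log2 fold change -0.23, adjusted p = 0.437), so only replicate 2 lay outside the controls. Rps6, the target of the S6 kinases, split the Rnaseh2b-/- lines to either side of the controls, at 13.60 and 13.19 against 13.41 to 13.48 (log2 fold change -0.05, adjusted p = 0.895). Rps9 and Rps10 also had replicate 1 above and replicate 2 below the control mean, at 14.18 and 13.82 for Rps9 against controls of 14.02 to 14.20. The 4 genes with positive values were Rps10, Rps3a1, Rps14 and Rps12, between 0.02 and 0.09.

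Among the 30 large-subunit genes, 3 were lower and 0 higher by that threshold, again beside 10.7% and 7.27% of all genes. The median log2 fold change was -0.068, and it was -0.022 without Rnaseh2b-/- replicate 2 and -0.28 after median scaling. Rpl4, a protein with a long loop that lines the exit tunnel of the nascent chain, had the smallest p of the family. Its normalized log2 signal was 10.54 and 10.34 in the Rnaseh2b-/- lines and 11.11, 11.09, 11.18 and 11.33 in the controls. The gap between the groups was wider than the spread within either, and the log2 fold change was -0.74 (standard error 0.13, 95% interval -1.05 to -0.43, limma, unadjusted p = 0.000690, adjusted p = 0.0741), or 0.599 times the control level. The call turned with the processing: the adjusted p was 0.0332 after median scaling, 0.0227 with no normalization between arrays, 0.0429 with a variance trend and robust fitting, and 0.0464 without control replicate 1, and Rps25 passed as well under the second (0.0492) and the last (0.0416) of these. Over all alternatives run, the adjusted p of Rpl4 lay between 0.0227 and 0.608, and its log2 fold change between -1.03 and -0.51. A second Rpl4 probe, above background on 2 control arrays and on 0 Rnaseh2b-/- arrays, was not part of this value.

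Rpl13a, which in human myeloid cells leaves the ribosome to silence inflammatory mRNAs after interferon-γ, was at 11.70 and 11.56 against 12.01, 11.80, 12.09 and 12.21. Both Rnaseh2b-/- lines lay below every control (log2 fold change -0.40, standard error 0.15, adjusted p = 0.239). For Rpl29 the values were 11.77 and 11.64 against 11.87 to 12.18 (log2 fold change -0.30, adjusted p = 0.302). Rpl10a, the protein of the stalk on the tRNA exit side, was at 14.60 and 14.52 against 14.67 to 14.78 (log2 fold change -0.17, adjusted p = 0.467). Rpl3, which reaches the peptidyl transferase centre, was at 14.43 and 14.44 against 14.49 to 14.55 (log2 fold change -0.09, adjusted p = 0.690), and Rpl31, near the mouth of the exit tunnel, at 12.37 and 12.23 against 12.40 to 12.44 (log2 fold change -0.12, adjusted p = 0.620). In these 5 genes the groups did not overlap by gene mean, and the last 3 differences were under 0.2 on the log2 scale. Single probes could overlap. The brighter Rpl29 probe was at 12.74 and 12.73 against 12.67 to 13.16 (log2 fold change -0.19, against -0.41 for the other). The Rpl31 probes at -0.15 and 0.02 overlapped too, while the one at -0.22 did not. The 4 control values of Rpl31 had the smallest SD of the family (0.019), and those of Rps29 (0.021) and Rpl35 (0.022) followed. For Rpl31 this held for the mean of 3 probes. Singly, these probes spread more in the controls, from 11.29 to 11.40, 11.32 to 11.59 and 14.31 to 14.50. Rpl35 in Rnaseh2b-/- replicate 2, at 14.48, lay below the controls at 14.62 to 14.68, while replicate 1 was at 14.68.

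Higher values were rarer. Rpl30, which in mammals also takes part in reading selenocysteine codons, was at 10.63 and 10.54 against 10.44, 10.24, 10.39 and 10.41, above every control (log2 fold change 0.22, standard error 0.12, adjusted p = 0.390). Its probes gave 0.18 and 0.26. The groups overlapped at the first, which was at 9.18 and 9.09 against 8.91, 8.71, 9.11 and 9.08. Rpl39, a small protein of the exit tunnel wall, was at 14.63 in both Rnaseh2b-/- lines against 14.36 to 14.59 (log2 fold change 0.13, adjusted p = 0.600). These were the 2 members above all controls. Rpl38, which mouse embryos need for translation of certain Hox mRNAs, was at 12.77 and 12.53 against 12.55, 12.34, 12.44 and 12.35 (log2 fold change 0.23, standard error 0.13, adjusted p = 0.409). Its lower Rnaseh2b-/- value lay just under its highest control. Rpl38 and Rpl30 turned negative, at -0.02 and -0.07, with no normalization between arrays, where the median of all genes was -0.27, and Rpl39 was at -0.17 there and at -0.09 after median scaling.

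The acidic stalk of the large subunit, which recruits the elongation factors, is built on Rplp0 by dimers of Rplp1 and Rplp2. Rplp2 was at 13.89 and 13.81 against 14.49, 14.10, 14.16 and 14.09. Both Rnaseh2b-/- lines were below the controls, of which replicate 1 stood well above the other 3, and the log2 fold change was -0.36 (standard error 0.15, adjusted p = 0.277). Rplp1 was at 14.95 and 14.89 against 14.84 to 14.96 (log2 fold change 0.02, 95% interval -0.25 to 0.29, adjusted p = 0.949). Rplp0 was at 8.78 and 8.91 against 9.03, 9.57, 8.81 and 8.86, with the largest control SD of the family (0.344) and a log2 fold change of -0.23 (adjusted p = 0.613, standard error 0.22). The 2 Rplp0 probes gave -0.12 and -0.34. The first was weak, with a mean signal of 7.29, and spread from 6.80 to 8.11 in the controls. The second spanned 10.49 to 11.02 there. By gene mean the 3 stalk genes thus gave unlike estimates, but the brighter Rplp0 probe lay near Rplp2. The differences among the stalk genes were not tested.

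Several members serve as reference genes in RT-qPCR, and 6 of these were tested. Rpl13a was described above, and Rplp0 had a wide 95% interval of -0.74 to 0.29. Rpl19 was at 12.61 and 12.58 against 12.60 to 12.72 (log2 fold change -0.07, 95% interval -0.34 to 0.21). Rpl32 was at 14.33 and 14.26 against 14.29 to 14.38 (log2 fold change -0.03, interval -0.30 to 0.24). Rpl27 was at 14.29 and 14.07 against 14.14 to 14.23, and its 2 Rnaseh2b-/- lines lay on either side of the controls (log2 fold change 0.01, interval -0.28 to 0.30). Rps29 was at 14.82 and 14.76 against 14.81 to 14.86 (log2 fold change -0.04, interval -0.31 to 0.22). The intervals of these last 4 genes reach at most 0.34 from 0. Under median scaling, in the order given, their log2 fold changes were -0.29, -0.28, -0.22 and -0.14, where the median of all genes was -0.19. With no normalization between arrays they were -0.37, -0.36, -0.30 and -0.22, where that median was -0.27.

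Of the members known to bind Mdm2, 5 were tested, and their median log2 fold change was 0.014, with 2 negative and 3 positive values. Rpl26, which in human cells also binds the p53 mRNA, was at 14.39 and 14.17 against 14.12 to 14.26 (log2 fold change 0.09, adjusted p = 0.743). Rpl23 was at 13.22 and 13.27 against 13.11 to 13.34 (log2 fold change 0.01), Rps7 at 14.55 and 14.47 against 14.47 to 14.60 (-0.03), and Rps14 at 14.80 and 14.79 against 14.70 to 14.80 (0.06). In each of these 4 genes the groups overlapped. Rps3, the remaining gene of the list, was described with the small subunit. Of the members whose human orthologues are mutated in Diamond-Blackfan anaemia, 7 were tested, with a median of -0.042. At an unadjusted p under 0.05, 1 of these 7, Rps24, was lower, beside 10.7% of all genes. Rps19, the one most often mutated, was at 10.07 and 10.13 against 10.39, 10.28, 10.25 and 10.09 (log2 fold change -0.15, adjusted p = 0.573). In this mean of 2 probes the groups overlapped at 1 control. The bright probe alone was at 14.26 and 14.22 against 14.44 to 14.52, below every control (log2 fold change -0.23). The weak probe, with a mean signal of 6.01, gave -0.06 and overlapped.

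Among the paralogues, Rpl22l1 had the lowest value. Rpl22l1 can replace Rpl22, which in mice represses it. It was at 8.17 and 7.76 against 8.81, 8.70, 8.36 and 8.21, with both Rnaseh2b-/- lines below the controls, though replicate 1 came close to control replicate 4 (log2 fold change -0.55, standard error 0.21, adjusted p = 0.243). Rpl22 was at 11.19 and 11.00 against 10.92, 11.44, 11.46 and 11.36 (log2 fold change -0.20, adjusted p = 0.595). Both had some of the largest control SDs of the family, 0.282 and 0.255. Control replicate 1 was the highest for Rpl22l1 and the lowest for Rpl22. Rpl36al, the autosomal copy of the X-linked Rpl36a, was at 13.49 and 13.25 against 13.30 to 13.52 (log2 fold change -0.06), and Rpl36a was at 13.30 in both Rnaseh2b-/- lines against 13.27 to 13.58 (-0.11). Rpl7l1, a nucleolar relative of Rpl7, was at 8.83 and 8.90 against 8.67 to 8.93 (0.03). The probes for Rpl3l, a paralogue of heart and skeletal muscle, and for Rpl39l, a paralogue known from testis, were above background on 0 arrays. That includes Rnaseh2b-/- replicate 1, in which muscle markers were high.

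The largest positive value of all 54 belonged to Rps4l, annotated here by a noncoding transcript and a close relative of Rps4x. It was at 10.00 and 11.29 against 10.29, 10.08, 10.37 and 10.34. The 2 Rnaseh2b-/- lines were the lowest and the highest of all 6, so the log2 fold change of 0.38 (adjusted p = 0.562, standard error 0.32) rested on replicate 2, and without it the value was -0.27. Rps19bp1, which encodes a protein that binds Rps19 and is no ribosomal protein, was at 8.03 and 7.43 against 7.43, 7.47, 7.23 and 7.81 (log2 fold change 0.24, adjusted p = 0.582). Here replicate 1 was high, and without it the value was -0.06.

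Many of these probes were near the top of the array's range. The highest intensity was 30167 to 30874 on 4 arrays and 37305 and 38135 on those of control replicates 3 and 4, and 8 to 11 of the 50 brightest probes of each array belonged to members. A mean normalized log2 signal of 14 or above was reached by 23 members, with a median log2 fold change of -0.028 and a median size of 0.061. For the 31 members under 14 these were -0.105 and 0.156. The 29 other genes at 14 or above had a median of 0.055 and a median size of 0.103. Of the 9 members lower at an unadjusted p under 0.05, 2 (Rps16 and Rplp2) were at 14 or above. With control replicates 3 and 4 left out, an alternative chosen after seeing the data, the median over all members was -0.029. Lower at an unadjusted p under 0.05 were then 3 members (5.56%), against 4.21% of all genes. The part of the upper limit in the small size of the differences was not tested.

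**Figure D2:**
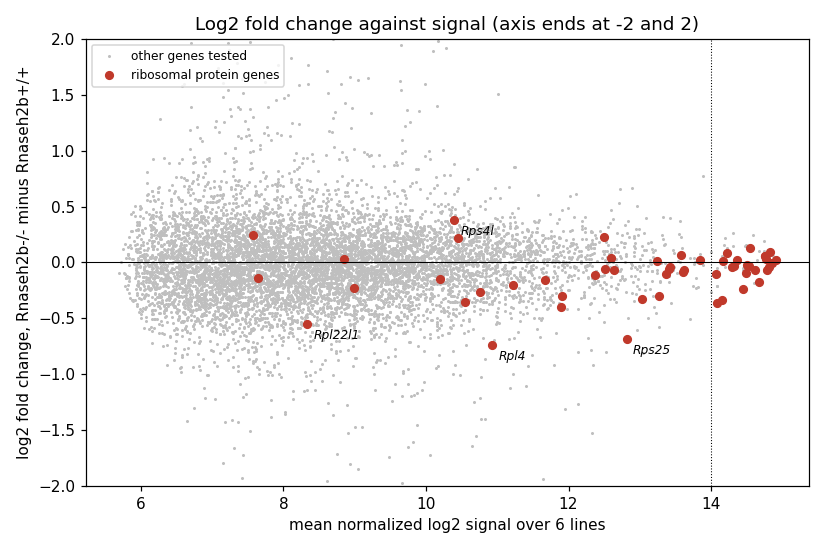
Log2 fold change, Rnaseh2b-/- minus Rnaseh2b+/+ (vertical axis), against mean normalized log2 signal over the 6 lines (horizontal axis) for the 54 ribosomal protein genes (large points) and the other genes tested (small points). The dotted line marks a signal of 14, right of which 23 members lie between -0.36 and 0.13, and genes beyond 2 on either side of the vertical axis are not drawn.

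The members with the lowest values shared chromosomes. Of the 9 members lower at an unadjusted p under 0.05, 7 lie on chromosomes 7, 9 and 14, which hold 14 of 54 members. On these chromosomes the other genes also had the lowest medians of all chromosomes. Of the 865 other genes lower at that threshold, 99, 160 and 80 lie there, in the same order. On chromosome 9 the median log2 fold change was -0.30 for 463 other genes, 34.6% of which were lower at an unadjusted p under 0.05. Its 4 members were Rpl4, Rps25, Rpl29 and Rplp1, with a median of -0.49. On chromosome 14, which carries Rnaseh2b, the median of 277 other genes was -0.23, with 28.9% lower at that threshold. The value of its 1 member, Rps24, was -0.35. On chromosome 7 the median was -0.18 for 552 other genes and -0.27 for 9 members, all of them negative. Of those other genes 17.9% were lower at that threshold. The 40 members on the other chromosomes had a median of -0.031, with 23 negative and 17 positive values, and the 6850 other genes there had 0.012. That median of members was -0.085 without Rnaseh2b-/- replicate 1, 0.013 without replicate 2 and -0.24 after median scaling, so its sign rested on 1 line.

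Set against the median of the other genes of its own chromosome, Rpl4 remained at -0.44, Rps25 at -0.38 and Rpl22l1 at -0.44, while Rps24 was at -0.12, Rps13 at -0.12 and Rpl29 at 0.00. For the 9 members on chromosome 7 the median was then -0.09 and for the 4 on chromosome 9 it was -0.19. The chromosomes were chosen after their values were seen. The distances from the control mean differed by line: on chromosome 7 the other genes had medians of -0.29 in Rnaseh2b-/- replicate 1, -0.09 in replicate 2 and -0.09 in control replicate 2, and the members -0.24, -0.28 and -0.07. On chromosome 9 the other genes were at -0.33 and -0.26 and the members at -0.44 and -0.48 in the 2 Rnaseh2b-/- lines. The 2 lines are single embryos, so what the shift of a chromosome owes to the line and what to the genotype cannot be told apart.

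**Figure D3:**
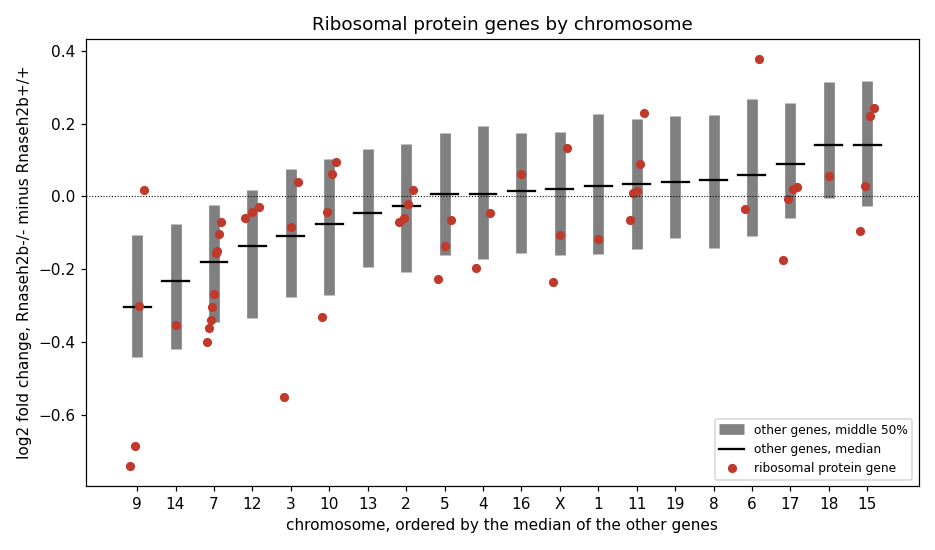
Log2 fold change, Rnaseh2b-/- minus Rnaseh2b+/+ (vertical axis), of each ribosomal protein gene (points) by chromosome, ordered by the median of the other genes (black lines; grey bars span their middle 50%). Chromosomes 9, 14 and 7 at the left have the lowest medians, -0.30, -0.23 and -0.18, and hold Rpl4 and Rps25, the 2 lowest points.

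Probes of 1 gene did not always give the same value, and whether the groups of a gene overlapped was read from their mean. Of the 54 genes, 16 had several probes, and the median distance between their lowest and highest log2 fold change was 0.191. For Rpl27a, a large-subunit gene, 4 probes gave -0.42 to 0.10, and the mean of the gene was -0.16 (adjusted p = 0.569). The probe at -0.42 was at 11.16 and 11.14 in the Rnaseh2b-/- lines against 11.45 to 11.67, and the one at 0.10 was at 14.59 and 14.65 against 14.32 to 14.65. Rpl21 had 3 probes from -0.30 to 0.02, and Rpl7l1 had 2, at -0.12 and 0.17. At the other end, the 2 probes of Rps9 gave -0.11 and -0.10 and those of Rps3 gave -0.08 and -0.06. Ribosomal protein genes have many near-identical processed pseudogenes in the mouse genome, so a probe may also read a copy, and these values are uncertain to that extent.

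Of the 64 genes, 10 had no probe above background on all 6 arrays. Rpl14 and Rps15a passed on 5 arrays. In the fit of genes above background on any array, Rpl14 was at 5.54 and 5.25 against 5.54 to 6.36 (log2 fold change -0.44, adjusted p = 0.391), and Rps15a was at 6.20 and 5.72 against 5.38 to 6.02 (0.20, adjusted p = 0.672). The probes for Rpl17, Rpl6, Rps20, Rps23, Rpsa, Rpl3l, Rpl39l and the retrogene Rps23rg1 were above background on 0 arrays. Core subunit proteins such as Rpl6, Rps20 and Rpsa are part of every ribosome, so a probe not above background here does not show that the gene is silent.

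Other genes of protein synthesis gave no call after adjustment in any list either. Of 12 other mRNAs known to carry a TOP tract, such as elongation factors, 1 was higher and 0 lower at the unadjusted threshold. Among all genes 7.27% and 10.7% were, and the median of the list was -0.037. Eif3h, a subunit of initiation factor eIF3, was at 9.08 and 8.64 against 8.27 to 8.65 (log2 fold change 0.41, adjusted p = 0.278), and Eif3f, another subunit, at 13.17 and 13.23 against 13.25 to 13.75 (-0.36, adjusted p = 0.294). Of 35 genes named as initiation factors, 2 were lower and 2 higher, beside the same shares of all genes, with a median of -0.003. Eif3h and Eif3f belong to this list too, so Eif3h is counted as higher in both. Eif1ad, at 0.39 (adjusted p = 0.243), lay above all controls in both lines, and Eif2a, at -0.32 (adjusted p = 0.253), lay below them.

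The mitochondrial ribosome, a separate machine with its own proteins, had a median of 0.059 over 72 genes, with 2 lower and 6 higher at the unadjusted threshold (10.7% and 7.27% of all genes), and 49 positive against 23 negative values. Both Rnaseh2b-/- lines lay above all controls for 18 of these genes and below for 3, where the cytosolic set had 2 and 14, and 11.9% and 16.0% of all genes did so. The difference between both sets was not tested. Mrps6, of its small subunit, was at 11.94 and 11.69 against 11.40, 10.79, 10.72 and 10.93 (log2 fold change 0.86, standard error 0.21, adjusted p = 0.120), and Mrpl1, of its large subunit, at 9.35 and 9.45 against 8.96 to 9.06 (0.40, standard error 0.12, adjusted p = 0.164). In both genes the groups did not overlap.

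Factors that assemble ribosomes in the nucleolus had a median of 0.139 over 39 genes, with 2 lower and 2 higher (10.7% and 7.27% of all genes). Utp4, of the small-subunit processome, was at 9.98 and 9.95 against 9.39 to 9.67 (log2 fold change 0.46, adjusted p = 0.162), and Rrp9, a U3 snoRNP protein on chromosome 9, at 7.80 and 7.62 against 7.99 to 8.22 (-0.37, adjusted p = 0.217). RNA polymerase I, which transcribes the rRNA genes, had 12 genes tested, with 1 lower, 1 higher and a median of 0.081. Its largest subunit gene Polr1a was at 8.46 and 8.38 against 7.65 to 8.16 (log2 fold change 0.57, adjusted p = 0.162), and both lines lay below controls of 9.23 to 9.68 for the subunit gene Twistnb (-0.63, adjusted p = 0.150). The values of both lists lay on either side of 0, with more above it, as the plot of lists shows. Positive and negative values numbered 26 and 13 for the assembly factors and 10 and 2 for RNA polymerase I.

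**Figure D4:**
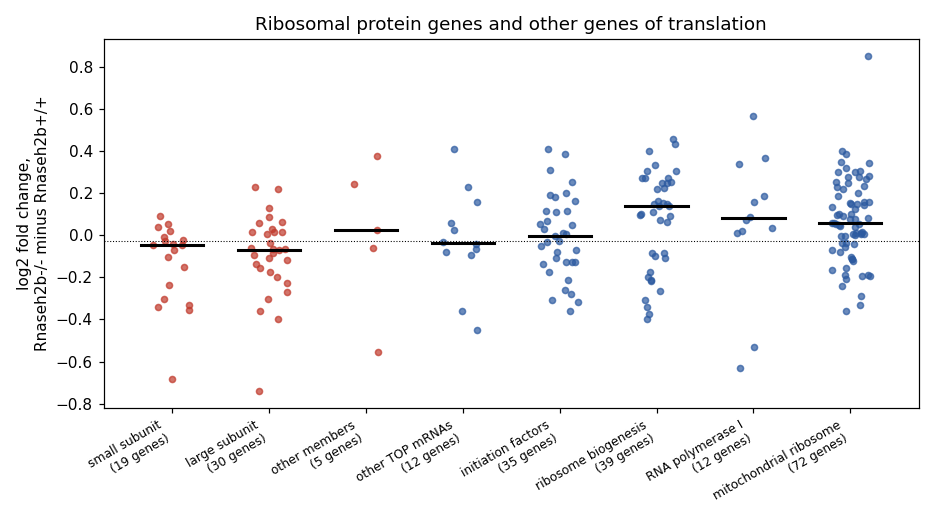
Log2 fold change, Rnaseh2b-/- minus Rnaseh2b+/+ (vertical axis), of each gene (points) in the ribosomal protein groups and in 5 other lists of protein synthesis genes, with the median of each list as a black bar and that of all genes tested as a dotted line. The medians of the small and large subunit are -0.046 and -0.068, and those of ribosome biogenesis and the mitochondrial ribosome are 0.139 and 0.059.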

How the data were processed

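Bead-summary intensity of each probe was exported from BeadStudio and deposited by the authors without background correction or normalization, beside the detection p-value that the authors' software gave each probe. The authors also deposited log2 values made with limma's neqc (the submitters' processing notes also name limma), and these served as an alternative. Background was inferred from the detection p-values, whose smallest step is 1 in 936, since control probes were not used. With limma 3.58.1 in R 4.3.3, neqc with an offset of 16 and quantile normalization gave log2 signal that differed from the deposited values by at most 0.109. Of 45281 probes, 34885 had 1 symbol in the platform annotation, 18 several and 10378 none. Symbols were checked by gene number against the RefSeq table of GRCm38.p6 (34807 probes matched, 0 symbols changed), which also gave chromosomes.

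The detection filter of the opening was applied to every probe, where the study's methods ask for 1 array only, and left 13890 probes, of which 12185 had 1 symbol. Probes of a gene were averaged, and lmFit and eBayes compared the 2 groups (4 residual and 3.59 prior degrees of freedom) with Benjamini-Hochberg adjustment. The labels call the lines biological replicates. The steps were tested on simulated arrays. Genes named were the 6 members with the smallest p in each direction, the 3 with the largest and the 3 with the smallest control SD, the stalk, reference, Mdm2-binding and paralogue genes, those whose probes differ most or were detected on some arrays only, and up to 2 genes of each other list. Further members were named after their values were seen. The members, the lists and the comparisons were chosen with earlier results of these data known. The alternatives were other filters, normalizations, treatments of a gene's probes and variance models, the platform's own symbols, fits without each line and a fit with a replicate block. The number of arrays limits the precision.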

Additional observations from a re-analysis of the deposited data

Results flagged for a closer look

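Of 38 tested control groups of 4 values, chance would set about 1.9 apart by Dixon's ratio at its 95% critical value, and 1 was. In Rplp2, a stalk protein gene, control replicate 1 stood apart at a log2 signal of 14.49, with the other 3 controls at 14.10, 14.16 and 14.09, and the gap to the nearest made up 0.83 of the range. Without control replicate 1 the log2 fold change of Rplp2 was -0.27 (limma, adjusted p = 0.221), against -0.36 (adjusted p = 0.277) with it.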

How the results depend on the processing

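Scaling moved the members most. With median scaling or no normalization between arrays, the median of all genes was -0.19 and -0.27, that of the members -0.28 and -0.36, and the distance between them -0.094 under both, against -0.037. Median scaling gave 1 adjusted member call and 18 members lower at an unadjusted p under 0.05, with medians of -0.29 for the small subunit, -0.28 for the large subunit, -0.45 for chromosome 7, -0.70 for chromosome 9 and -0.24 for chromosomes other than 7, 9 and 14, and turned Rpl23 to -0.21, Rpl26 to -0.15, Rpl27 to -0.22, Rpl39 to -0.093, Rpl7l1 to -0.14, Rplp1 to -0.059 and Rps14 to -0.053. No normalization gave 2 calls, 20 members lower, medians of -0.37, -0.36, -0.53, -0.78 and -0.32 in the same order, and -0.29, -0.23, -0.30, -0.17, -0.22, -0.14 and -0.13 for the same genes, with Rpl30 at -0.071 and Rpl38 at -0.017. Among all genes these scalings called 22 higher and 49 lower, and 29 and 88. At an unadjusted p under 0.05 the members lower were 33.3% and 37.0%, against 21.2% and 23.8% of all genes. Cyclic loess moved the small subunit to -0.061 and Rps29 to 0.091.

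With any-array detection, and with no filter, Rpl23 was at -0.026. With no filter 1 member was higher at an unadjusted p under 0.05, chromosome 7 was at -0.19 and chromosome 9 at -0.37. Testing each probe gave -0.066 for the small subunit and -0.20 for chromosome 7. The brightest probe alone gave -0.056 for the small subunit, 0.10 for Rpl27a and 0.016 for Rpl31. A variance trend with robust fitting gave 1 call, Rpl4. Array weights gave -0.056 for the small subunit, -0.0006 for Rpl23 and -0.021 for Rpl7l1.

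The replicate numbers only name the lines. Deviations of same-numbered lines correlated at 0.125 and 0.157 over 2 pairs. With the replicate number as a block, 0 members were called (smallest adjusted p 0.309), and 1 gene was called higher and 1 lower among all. At an unadjusted p under 0.05, 3 members were lower (5.56%), against 5.74% of all genes. The medians were -0.029 for the members, -0.061 for the small subunit and -0.0038 off chromosomes 7, 9 and 14, and Rpl32 was at 0.0093, Rpl36al at 0.0083 and Rplp1 at -0.020. Controls 3 and 4 have no partner. The fits without them and with a covariate for them, both added after seeing the data, therefore give the same estimates by construction. At an unadjusted p under 0.05 they gave 3 and 5 members lower (5.56% and 9.26%), against 4.21% and 6.90% of all genes. Members under a signal of 14, also added then, had medians of -0.105 in all, -0.15 in the small and -0.12 in the large subunit, -0.69 on chromosome 9 and -0.058 off the 3 chromosomes. Less the median of the chromosome, members were at -0.087 on chromosome 7 and -0.19 on chromosome 9.

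Each line was left out in turn. Without 1 of the controls there were 0 to 2 adjusted member calls (2 without control replicate 1, Rpl4 and Rps25). At an unadjusted p under 0.05, 3 to 7 members were then lower (5.56% to 13.0%), against 7.10% to 13.8% of all genes. The members' median ran from -0.10 without Rnaseh2b-/- replicate 1 to -0.011 without replicate 2, the small subunit's from -0.12 to -0.011, the large subunit's from -0.096 to -0.022, that of chromosome 7 from -0.34 to -0.23, and that off the 3 chromosomes from -0.085 to 0.013. Among all genes 0 to 108 were called higher and 0 to 109 lower. Single genes that changed sign ranged from -0.020 to 0.20 (Rpl26), -0.099 to 0.12 (Rpl27), -0.0093 to 0.044 (Rplp1), -0.059 to 0.55 (Rps19bp1), -0.026 to 0.049 (Rpl23), -0.17 to 0.030 (Rpl35), -0.18 to 0.060 (Rpl36al), -0.030 to 0.063 (Rpl7l1), -0.27 to 1.02 (Rps4l) and -0.067 to 0.011 (Rps7). The cause of these changes was not tested. Of the single-gene values under an alternative, 47 changed sign, 6 passed the threshold where the main value did not, and 555 did neither. With 2 lines in 1 group, the precision for small changes of these mRNAs was limited.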

Other observations

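Some members had further probes above background on part of the arrays only, which were left out of the values of the report and entered only the alternatives with a wider filter or none. With detection on at least 1 array, Rpl4 was at -0.51 on the log2 scale, Rps13 at -0.51 and Rpl23 at -0.026, against -0.74, -0.30 and 0.01. The second Rps13 probe passed on 5 arrays, with normalized log2 signals of 5.17 and 5.75 in the Rnaseh2b-/- lines and 5.97, 6.46, 6.51 and 5.71 in the controls. The second Rpl4 probe, which passed on 2 control arrays, was at 5.23 and 5.56 against 5.89, 6.03, 5.58 and 5.17. Another Rpl23 probe passed on 3 arrays and was at 5.41 and 5.70 against 5.12, 6.61, 5.49 and 5.58. A second Rpl37 probe passed on 1 control array and was at 5.24 and 5.45 against 5.65, 5.00, 5.20 and 5.12.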
